A study of Mus musculus with 4 samples.

Results

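The glycolysis genes examined here are 10 genes that carry glucose from the medium to lactate, namely *Slc2a1*, *Hk1*, *Hk2*, *Pfkl*, *Aldoa*, *Tpi1*, *Pgk1*, *Eno1*, *Pkm* and *Ldha*. They were chosen by symbol, and all 10 were found among the 16375 genes of the deposited table. The cells were bone marrow-derived macrophages (BMDMs), grown from bone marrow of WT mice and of *lncLy6c* KO (LNCKO) mice with macrophage colony-stimulating factor. The KO was made in zygotes with CRISPR-Cas9 guides on either side of the long non-coding RNA gene *lncLy6c*, on the C57BL/6J background, and is not limited to macrophages. Cultures of each genotype were left untreated (control) or received 500 µM butyrate, a short-chain fatty acid made by gut bacteria, for 24 h, and each of the 4 combinations of genotype and treatment has 1 RNA library. Values are given for control first and butyrate second within a genotype. Neither the age nor the sex of the donor mice is given in the labels.

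Glycolysis splits each glucose into a pair of pyruvate molecules in the cytosol and yields ATP without oxygen. Macrophages are known to draw heavily on it when they are activated, and lactate dehydrogenase then turns pyruvate into lactate so that NAD+ is regenerated. Many genes of the pathway are textbook targets of HIF-1, the transcription factor that is stabilised at low oxygen, and several are also targets of MYC.

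Library totals, recovered from the FPKM values, ranged from 53363944 to 65521713 fragments, and each of the 10 genes had at least 3491 fragments in every library. Since every group is a single library, the spread between cultures is unknown and no p value is given. The 95% intervals in parentheses are exact and cover counting error only. The libraries also differed in other ways between the genotypes. The summed FPKM (fragments per kilobase of gene per 1000000 fragments) of 4 Y-linked genes was 0.136 and 0.0657 in WT against 10.3 and 11.5 in LNCKO, and donor sex cannot be told apart from genotype. The deleted transcript is not listed under its name, and its loss was not analysed here. All 10 macrophage markers were expressed, meaning here a mean FPKM of 1 or more over the 4 libraries, and B cell and neutrophil precursor genes were present in all 4 libraries too. In such bulk samples, fewer cells of a type and less RNA per cell cannot be told apart.

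Per length of annotated exon, *Aldoa* and *Pkm* were the most abundant of the 10 genes and *Hk1* was the least abundant. The place of *Hk1* depends on the length used. The deposited FPKM divides by the whole genomic span with its introns, so levels of different genes were compared as fragments per kilobase of annotated exon per 1000000 fragments. On this scale, *Aldoa*, the aldolase that splits fructose 1,6-bisphosphate, was at 336 and 306 in WT and at 401 and 413 in LNCKO. *Pkm*, the pyruvate kinase of the last ATP-yielding step, followed with 270, 252, 328 and 312 in the same order. *Ldha*, the lactate dehydrogenase subunit that favours lactate formation, was at 168, 184, 208 and 213, and *Tpi1*, triose phosphate isomerase, at 146, 152, 190 and 190. The ranges of *Aldoa* and *Pkm* overlapped over the libraries, as did those of *Ldha* and *Tpi1*, although within each library the order was the same.

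*Pgk1*, the phosphoglycerate kinase of the first ATP-yielding step, and *Eno1*, enolase, had nearly the same exon level, from 63.1 to 85.1 and from 65.6 to 76.6. This likeness holds for exon length only. The exons of *Eno1* cover 5379 bases and its longest transcript 2027, against 2244 and 1825 for *Pgk1*. The 4 genes with the lowest exon levels were the entry genes. *Hk2*, the inducible hexokinase, ranged from 24.96 to 28.0, *Slc2a1*, the glucose transporter GLUT1, from 17.5 to 24.3, *Pfkl*, the liver-type phosphofructokinase, from 18.3 to 23.1, and *Hk1*, the housekeeping hexokinase, from 15.9 to 17.6. *Slc2a1* and *Pfkl* overlapped in range, whereas *Hk2* lay above both and *Hk1* lay below *Pfkl* in all 4 libraries. The order of these 4 genes depends on the length used. The exons of *Hk1* cover 8532 bases and its longest transcript 4278, against 5969 and 5513 for *Hk2*. With the longest transcript as the length, *Hk1* was above *Hk2*. By the median over libraries, 98.8% of the expressed genes had a lower exon level than *Aldoa*, and 56.4% had a lower one than *Hk1*.

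**Figure D1:**
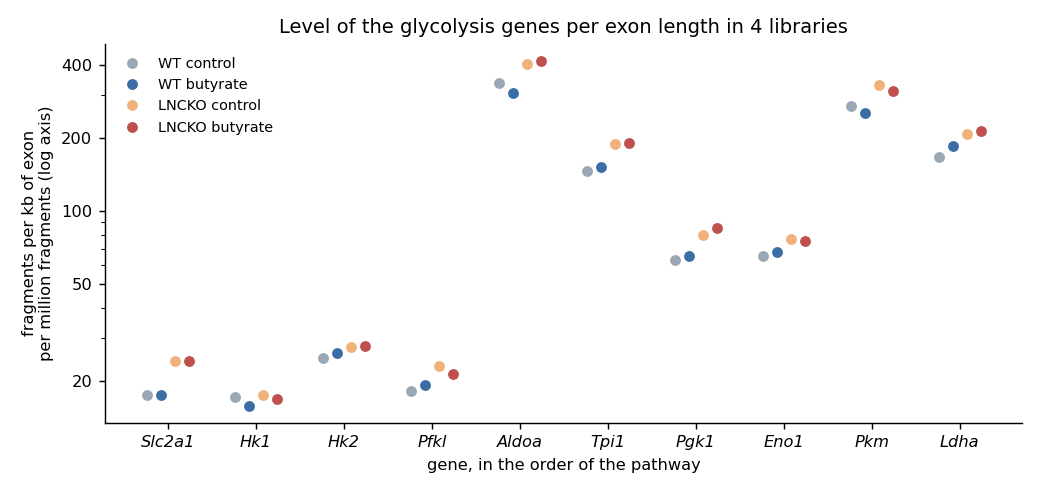
Fragments per kilobase of exon per 1000000 fragments (log axis) of the 10 glycolysis genes, in pathway order, with 1 point for each of the 4 libraries. *Aldoa*, *Pkm*, *Ldha* and *Tpi1* sit above 100, and *Slc2a1*, *Hk1*, *Hk2* and *Pfkl* sit below 30.

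The leading isoenzyme of the aldolase, lactate dehydrogenase, phosphofructokinase and hexokinase steps was the same in all 4 libraries. Of the aldolase level per exon length, *Aldoa* held 98.6% to 99.1%, and of the lactate dehydrogenase level, *Ldha* held 95.9% to 97.6%. *Ldhb*, the subunit that favours the reverse reaction, held 3.44% and 3.63% in WT but 2.19% and 2.48% in LNCKO. Of the phosphofructokinases, *Pfkl* held 59.3% to 61.4% and the platelet-type *Pfkp* 28.2% to 30.1%. The hexokinase level was mostly that of *Hk3*, the myeloid hexokinase outside the 10 genes, with 66.0% to 66.8%, whereas *Hk2* held 19.9% to 21.1% and *Hk1* 12.5% to 13.8%. These shares depend on the length given to each gene. With the longest annotated transcript as the length, *Hk1* (20.1% to 22.0%) was above *Hk2* (17.3% to 18.4%). For enolase, *Eno1b* led *Eno1* per exon length (67.2% to 68.6% against 29.3% to 30.1%), and *Eno1* led by longest transcript (51.2% to 52.1% against 46.1% to 47.3%).

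The transcript level of the sugar transporters was shared by several genes, and transport itself was not measured. *Slc2a1* held 34.6% and 32.5% of the summed level of 4 sugar transporters in WT, and 39.8% and 37.8% in LNCKO. *Slc2a6*, a lysosomal sugar transporter, held 32.8% and 26.4% in WT and 26.9% and 26.01% in LNCKO. *Slc2a3*, the high-affinity transporter GLUT3, held 28.8% and 36.9% in WT and 29.3% and 33.2% in LNCKO, so it was above *Slc2a1* with butyrate in WT and below it in the other 3 libraries. With the longest transcript as the length, *Slc2a6* (34.2%) was above *Slc2a1* (32.9%) in WT control.

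Near-identical copies limit the values of 3 of the 10 genes. Of the words of 100 bases, the length of a read, in its annotated transcripts, *Pgk1* shared 51.7% with transcripts of other genes, chiefly the pseudogene *Pgk1-rs7*. *Eno1* shared 20.4%, chiefly with *Eno1b*, and *Pkm* shared 12.3%, chiefly with a transcript annotated inside it. The other 7 genes shared at most 0.627%. Of *Gapdh*, the triose dehydrogenase outside the 10 genes, 20.9% of the words were shared with 89 other genes in all. *Pgam1*, also outside the 10 genes, shared 33.9%, chiefly with the pseudogene *Pgam1-ps2*. How the authors' counting treated reads that match more than 1 gene is not given in the sources used here. The levels of *Pgk1*, *Eno1*, *Pkm*, *Eno1b*, *Gapdh* and *Pgam1* are therefore uncertain. *Tpi1* overlaps *Spsb2* on the opposite strand, which was listed with 973 to 1200 fragments against 22599 to 34288 of *Tpi1*.

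The promoter windows of the genes were searched for ACGTG, one of the core sequences that HIF-1 binds, on both strands. Windows run from 250 bases before to 50 after an annotated start in RefSeq on GRCm38.p6, and 17 windows matched the 10 genes. ACGTG was found in 8 of these 17 windows, belonging to 7 of the 10 genes, and in 19.6% of all 32817 windows. Among windows of expressed genes, 27.4% held it. Counted by gene, 21.8% of all genes and 30.9% of the expressed genes had ACGTG in a window. The other core sequence, GCGTG, was found in 8 of the 17 windows, in 32.4% of all and in 51.1% of those of expressed genes. CACGTG, the E-box, contains ACGTG on both strands and was found in 1 of the 17 windows, that of *Ldha*, and in 7.15% of all. *Tpi1* had neither ACGTG nor GCGTG in its window, and *Eno1* and *Pfkl* had GCGTG alone. The stretches around 1 match in each of the 7 genes follow, to show where the genes carry these letters near a start. The strand of the gene is printed, and capitals mark ACGTG or its complement CACGT.
Slc2a1: cccgccccggACGTGctccccaggc
Hk1: cgcgctccttACGTGgggaacgtgc
Hk2: tgagcacatcCACGTcactgtccgg
Aldoa: tggctcgagtCACGTcctagcgggg
Pgk1: gtcgtgcaggACGTGacaaatggaa
Pkm: ccgatccggtCACGTccgcgccgca
Ldha: tgggttcccgCACGTccgctgggct

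The stretch of *Slc2a1* lies at chr4:119108699-119108723 (+ strand), that of *Hk1* at chr10:62340400-62340424 (- strand) and that of *Hk2* at chr6:82774492-82774516 (- strand). The stretch of *Aldoa* lies at chr7:126799366-126799390 (- strand) and that of *Pgk1* at chrX:106186940-106186964 (+ strand). Those of *Pkm* and *Ldha* lie at chr9:59657142-59657166 and chr7:46845760-46845784 (both + strand). Counted from the start, the first capital was at -36 in *Slc2a1*, -202 in *Aldoa*, -52 in *Hk2*, -150 in *Pgk1*, -75 in *Pkm* and -34 in *Ldha*. In *Hk1* it was at 7, after the start, and a second ACGTG follows in the same stretch. A match is a description of the letters and does not show binding.

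Without butyrate, the glycolysis genes were higher in LNCKO than in WT macrophages, by a median log2 difference of 0.28 on FPKM + 1, against 0.01 for all 6809 expressed genes. All 10 were above 0, as were 56.7% of all genes, and ranged from 0.02 for *Hk1* to 0.38 for *Tpi1*. A log2 difference of 0.32 was taken as the threshold for a count. *Slc2a1* and *Tpi1* were past it in LNCKO, 2 of 10 against a background of 1.23% of the 6809 genes, and 0 of 10 were past it downward against 0.984%. *Pfkl* and *Pgk1* passed this fold as plain ratios of FPKM but not on FPKM + 1. All log2 values are on FPKM + 1, and ratios are of FPKM without a pseudocount.

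The same comparison between the butyrate cultures uses the other pair of libraries. There the median difference of LNCKO from WT was 0.25 against 0.04 for all genes, and all 10 genes were again above 0 (64.2% of all genes), from 0.05 for *Hk1* to 0.43 for *Aldoa*. *Slc2a1*, *Aldoa*, *Tpi1* and *Pgk1* were past the threshold, 4 of 10 against 3.82%, and 0 of 10 were past it downward against 2.48%. For 9 of the 10 genes both LNCKO libraries were above both WT libraries, which held for 24.9% of all 6809 genes, and for 0 of 10 both were below, which held for 11.3%. *Hk1* was the gene whose libraries overlapped. For 7 of the 10 genes the lower LNCKO library was at least 1.1-fold above the higher WT library on FPKM + 1. This held for 2.14% of all genes. The 1.1-fold limit was chosen after the values were seen. *Pfkl* was at 1.098 on this scale and at 1.12 as a plain ratio of FPKM. Scaled by the median ratio of all genes, the median differences were 0.27 without and 0.20 with butyrate and all 10 genes were still above 0 in both, but 1 gene in each comparison was then past the threshold.

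**Figure D2:**
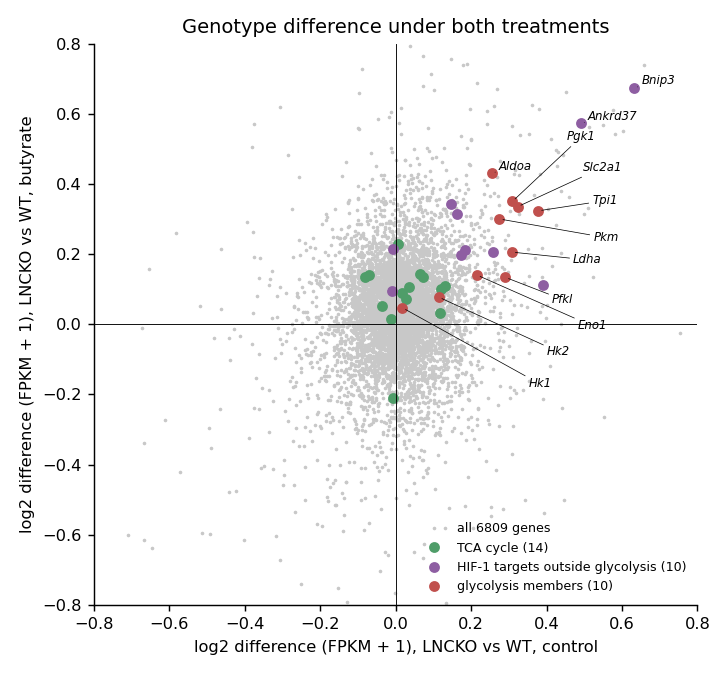
Log2 difference of FPKM + 1 between LNCKO and WT in the control cultures (horizontal axis) and in the butyrate cultures (vertical axis), which share no library. Red points are the 10 glycolysis genes, green the TCA cycle, purple HIF-1 targets outside glycolysis and grey all 6809 genes, of which 62 lie outside the axes. All 10 red points are to the right of and above 0.

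*Slc2a1* had the largest ratio between the genotypes. Its FPKM was 2.11 and 2.10 in WT against 2.90 and 2.91 in LNCKO, so the WT libraries were close to each other and both LNCKO libraries were higher. LNCKO over WT was 1.37 (1.31 to 1.43) without and 1.39 (1.33 to 1.45) with butyrate. *Slc2a1* (ENSMUSG00000028645) lies on chromosome 4 of GRCm38 from 119108711 to 119137983.

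The hexokinases showed the smallest genotype differences of the 10 genes. The FPKM of *Hk2* was 3.01 and 3.15 in WT and 3.34 and 3.38 in LNCKO, with LNCKO over WT at 1.11 (1.08 to 1.14) without and 1.07 (1.04 to 1.103) with butyrate. The FPKM of *Hk1* was 1.33, 1.22, 1.35 and 1.30 in the same order, and LNCKO over WT without butyrate was 1.02, with a counting interval from 0.991 to 1.05 that includes 1, and with butyrate it was 1.06 (1.03 to 1.09). *Hk3*, the most abundant hexokinase, was at 19.8, 19.5, 21.1 and 21.5, a ratio of 1.06 (1.04 to 1.08) without and 1.11 (1.08 to 1.127) with butyrate. *Pfkl*, at the committed step, differed more without butyrate than with it, with FPKM values of 5.27, 5.57, 6.66 and 6.21 and ratios of 1.27 (1.23 to 1.31) and 1.12 (1.08 to 1.15).

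At the steps that follow, those of aldolase and triose phosphate isomerase, *Tpi1* had an FPKM of 108 and 112 in WT against 141 in both LNCKO libraries. LNCKO over WT was 1.30 (1.28 to 1.33) without and 1.254 (1.23 to 1.27) with butyrate. *Tpi1* (ENSMUSG00000023456) lies on chromosome 6 from 124810586 to 124814296. *Aldoa* was at 177 and 161 in WT and at 212 and 218 in LNCKO, with WT butyrate the lowest of the 4 libraries. Its ratio was 1.19 (1.18 to 1.21) without and 1.35 (1.34 to 1.37) with butyrate.

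The genes of the later steps, from *Pgk1* to *Ldha*, were higher in both LNCKO libraries as well. *Pgk1* had FPKM values of 8.53 and 8.81 in WT and 10.8 and 11.5 in LNCKO, with ratios of 1.27 (1.23 to 1.31) and 1.31 (1.27 to 1.34). It lies on the X chromosome, from 106187100 to 106203699, and is the only X-linked gene among the 10. *Pkm* was at 58.8 and 54.8 in WT and 71.3 and 67.7 in LNCKO, with ratios of 1.21 (1.20 to 1.23) and 1.24 (1.22 to 1.248). *Eno1* was at 29.0 and 30.1 against 33.9 and 33.2, and its ratios, 1.17 and 1.11, were near those of its copy *Eno1b*, 1.22 and 1.12. *Ldha* was at 39.2 and 43.1 in WT and 48.7 and 49.9 in LNCKO, with ratios of 1.24 (1.23 to 1.26) and 1.16 (1.14 to 1.17). Among the 7 genes with few shared words, 6 had both LNCKO libraries above both WT libraries (24.9% of all genes). Their median log2 difference, over the 7 genes, was 0.29 without and 0.21 with butyrate.

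**Figure D3:**
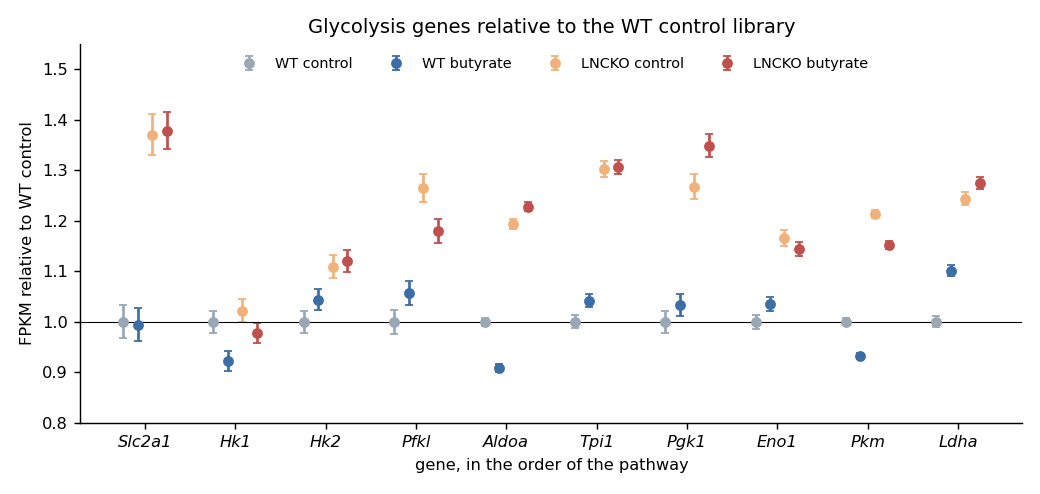
FPKM of each glycolysis gene in each library, divided by its FPKM in WT control, in pathway order. Bars are exact 95% Poisson intervals of the fragments of that library and cover counting error only. The orange and red points (LNCKO) lie above the grey and blue points (WT) for each gene except *Hk1*.

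Summed over the 10 genes, the fragments were 0.426% and 0.417% of the library in WT, against 0.517% and 0.513% in LNCKO. Several other gene groups moved with the genotype in the same libraries. The median log2 difference of LNCKO from WT without butyrate was 0.60 over the 3 expressed basophil and mast cell genes and 1.49 over 3 hemoglobin genes. It was -1.33 over 2 collagen genes of stromal cells, -0.18 over 8 neutrophil precursor genes, 0.01 over 5 B cell genes and -0.02 over 10 macrophage genes. With butyrate these medians were 0.94, 2.83, -0.49, -0.39, 0.42 and -0.19 in the same order. The 2 collagen genes were the expressed stromal markers. Of the stromal markers with a mean FPKM below 1, *Col3a1*, *Sparc*, *Dcn* and *Cxcl12* were all lower in LNCKO without butyrate. With butyrate *Sparc*, *Dcn* and *Cxcl12* were lower too, but *Col3a1*, also a collagen gene, was higher, with a ratio of 1.17 (1.09 to 1.26). Markers within a list differed. The macrophage gene *Lyz2* had LNCKO over WT ratios of 0.816 without and 0.303 with butyrate, and *Cd14* of 1.08 and 1.27. Of the 8 neutrophil precursor genes, 3 were above 0 and 5 below in each comparison. The part of these cell types, and of the donor sex, in the glycolysis differences was not tested. The erythroid gene *Alas2* had at most 57 fragments in any library.

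The other glycolytic genes were read from a list of 26 isoenzymes, transporters and missing steps, of which 23 are in the table and 15 were expressed. Without butyrate 13 of these 15 were higher in LNCKO than in WT (56.7% of all genes), with a median log2 difference of 0.19. With butyrate 12 of 15 were higher (64.2% of all genes), with a median of 0.14. Both LNCKO libraries were above both WT libraries for 9 of 15, against 24.9% of all genes. *Slc16a3*, the lactate exporter MCT4, had an FPKM of 11.7 and 14.0 in WT and 15.2 and 15.5 in LNCKO. *Aldoc* had the largest difference without butyrate, with a ratio of 1.48 (1.33 to 1.66), and was lower in LNCKO with butyrate, at 0.895 (0.812 to 0.986). *Gpi1*, which turns glucose 6-phosphate into fructose 6-phosphate, was 1.16 times higher in LNCKO both without (1.14 to 1.18) and with butyrate (1.15 to 1.18). *Pgam1*, phosphoglycerate mutase, had ratios of 1.18 and 1.06, and *Gapdh* of 1.15 and 1.125. *Adpgk*, an ADP-dependent glucokinase, was the furthest below 0 without butyrate, with a ratio of 0.867 (0.837 to 0.898).

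Pathways that branch from glycolysis had smaller differences without butyrate. The median log2 difference of LNCKO from WT control was 0.02 over 14 TCA cycle genes, with 9 above 0, and -0.04 over 8 pentose phosphate genes, with 3 above 0. Over 6 genes of glycogen metabolism it was -0.03, with 3 above 0. Of all genes, 56.7% were above 0. Between the butyrate cultures the medians of these 3 lists were 0.10, 0.12 and 0.13. There 13 of 14, 8 of 8 and 6 of 6 genes were above 0, against 64.2% of all genes. For pyruvate entry into mitochondria the medians were 0.14 without and 0.16 with butyrate over 9 genes, with 7 and 8 above 0. In that list *Pdk1*, the kinase that shuts off pyruvate dehydrogenase, was at 1.91 and 1.71 in WT and 2.58 and 2.39 in LNCKO, with ratios of 1.36 (1.29 to 1.42) and 1.40 (1.34 to 1.46). *Pdhb*, a subunit of the enzyme itself, was at 7.79, 6.84, 8.95 and 8.89 in the 4 libraries.

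Of the known HIF-1 targets outside glycolysis, 10 of 13 were expressed. Both LNCKO libraries were above both WT libraries for 8 of these 10, against 24.9% of all genes. Their median log2 difference was 0.18 without and 0.21 with butyrate. *Bnip3*, a mitophagy receptor, had an FPKM of 3.06 and 2.97 in WT and 5.29 and 5.34 in LNCKO, a ratio of 1.73 (1.66 to 1.81) without butyrate. *Ankrd37* had a ratio of 1.798 (1.61 to 2.01) without and 1.98 (1.78 to 2.20) with butyrate. In the list of HIF-1 regulators, *Egln3*, an oxygen-sensing prolyl hydroxylase that is itself a HIF-1 target, was at 1.26 and 1.20 in WT and 2.38 and 2.36 in LNCKO. The mRNA of *Hif1a* itself was lower in LNCKO, with an FPKM of 5.92 and 7.47 in WT and 5.76 and 5.84 in LNCKO. *Bnip3l*, with a log2 difference of -0.01, and *Ddit4*, also with -0.01, were the expressed HIF-1 targets below 0 without butyrate. Among the targets with a mean FPKM below 1, *Car9* was lower in LNCKO without butyrate, with a ratio of 0.792 (0.664 to 0.942). In the same comparison *Adm* had a ratio of 1.64 (1.18 to 2.29) and *P4ha2* of 1.22 (0.921 to 1.62).

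**Figure D4:**
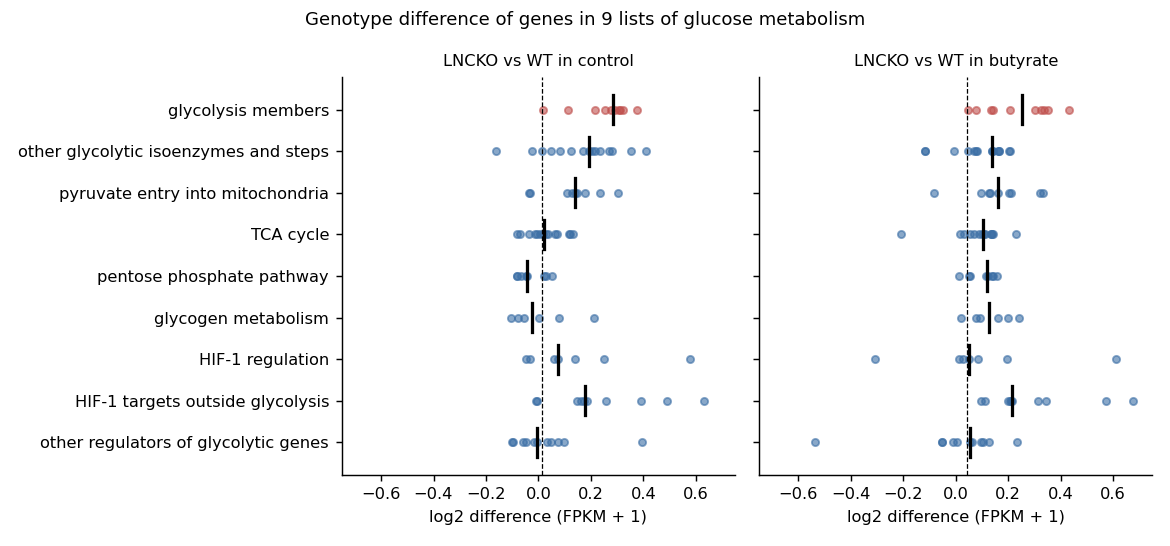
Log2 difference of FPKM + 1 between LNCKO and WT for the genes of 9 lists that were expressed, in control cultures (left) and butyrate cultures (right). Points are genes, black bars the median of each list and the dashed line the median of all genes. The glycolysis genes (red) have the highest median of the 9 lists in both panels.

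Butyrate moved the glycolysis genes little in either genotype. In WT macrophages the median log2 change was 0.04, against -0.04 for all genes, with 6 of 10 genes above 0 (36.9% of all genes). In LNCKO macrophages it was 0.01, against -0.01, again with 6 of 10 above 0 (42.2%). In WT, 0 of 10 genes were past the threshold upward (2.95% of all genes) and 0 downward (2.85%). In LNCKO the counts were 0 (1.01%) and 0 (0.455%). These small changes depend on the scaling. With every library scaled to the mean of the deposited FPKM sums, over the same 6809 genes, the median of all genes with butyrate was -0.083 in WT and -0.032 in LNCKO, and those of the 10 genes were -0.0065 and -0.014. The counts above 0 were then 4 and 3 of 10. As deposited, butyrate went with a higher value in both genotypes for 4 of 10 genes (17.9% of all genes), *Hk2*, *Tpi1*, *Pgk1* and *Ldha*, and with equal sums for 1, *Ldha*. It went with a lower value in both for 2 of 10 (38.8%), *Hk1* and *Pkm*, and with equal sums for 4, *Slc2a1* and *Eno1* being the others. Cell type markers also differed with butyrate in WT, with median log2 changes of -0.39 over the B cell genes and 0.18 over the macrophage genes. The median was -0.36 over 3 expressed genes of mast cells and basophils, of which *Ms4a2* rose, with a ratio of 1.66. It was -0.27 over 2 collagen genes, the expressed stromal markers. Of the stromal markers with a mean FPKM below 1, *Col3a1*, *Dcn* and *Cxcl12* rose and *Sparc* fell. In LNCKO the median was 1.40 over 3 hemoglobin genes, against 0.10 in WT, and 0.56 over the 2 collagen genes. It was 0.003 over the B cell genes, 0.04 over the macrophage genes and -0.03 over the mast cell and basophil genes. The macrophage gene *Lyz2* had a butyrate ratio of 1.46 in WT and 0.540 in LNCKO, and *Cd14* of 0.677 and 0.797. The part of these cells in the changes of other genes was not tested.

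*Ldha* was the furthest above 0 with butyrate in WT and *Aldoa* the furthest below, with log2 changes of 0.14 and -0.14. The FPKM of *Ldha* was 39.2 in control and 43.1 with butyrate, a ratio of 1.101 (1.08 to 1.12). In LNCKO the ratio of *Ldha* was 1.02 (1.01 to 1.04). *Aldoa* was lower with butyrate in WT, at 0.909 (0.898 to 0.920), and higher in LNCKO, at 1.03 (1.02 to 1.04). *Pkm* and *Hk1* were lower with butyrate in both genotypes. The ratio of *Pkm* was 0.932 (0.923 to 0.942) in WT and 0.949 (0.941 to 0.958) in LNCKO, and that of *Hk1* was 0.922 (0.894 to 0.951) and 0.957 (0.929 to 0.986). *Slc2a1* was level, at 0.994 (0.948 to 1.04) and 1.01 (0.967 to 1.05). For 1 of the 10 genes, *Hk1*, both butyrate libraries were below both control libraries, which held for 25.8% of all genes, and for 0 of 10 both were above, against 11.1%.

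Some genes around the pathway changed more with butyrate in WT than any of the 10. *Myc* had an FPKM of 8.28 and 15.6 in WT and 11.2 and 10.4 in LNCKO, which is a butyrate ratio of 1.88 (1.79 to 1.98) in WT and 0.931 (0.886 to 0.978) in LNCKO. *Hif1a* had ratios of 1.26 (1.24 to 1.29) and 1.01 (0.991 to 1.04). Among the other glycolytic genes, *Slc2a3* was higher in both genotypes, by 1.36 (1.31 to 1.40) and 1.20 (1.17 to 1.24), while *Slc16a3* had 1.19 (1.16 to 1.23) and 1.02 (0.990 to 1.04). *Aldoc* was at 1.42 (1.27 to 1.58) in WT and 0.853 (0.773 to 0.942) in LNCKO. Over the 15 genes of that list the median log2 change was 0.06 in WT and -0.02 in LNCKO.

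**Figure D5:**
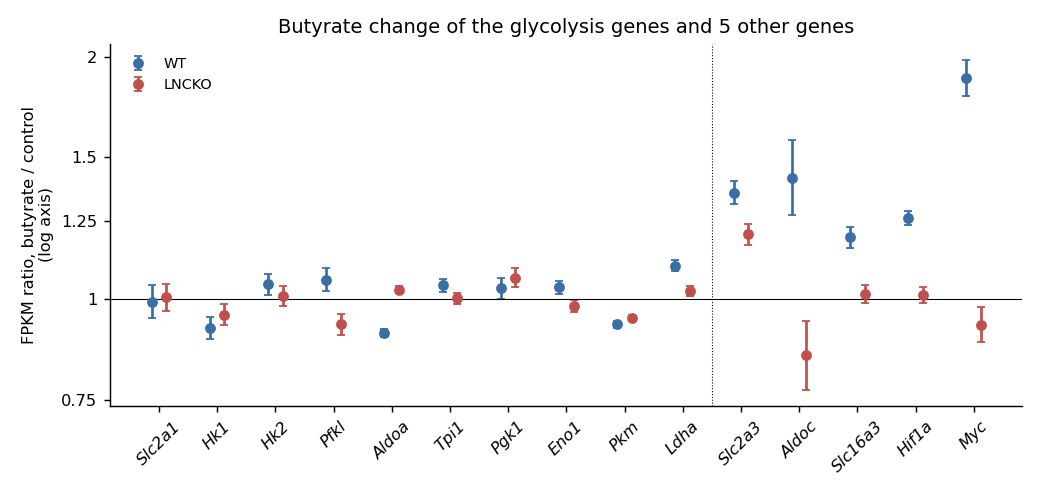
FPKM ratio of butyrate over control (log axis) in WT (blue) and LNCKO (red) for the 10 glycolysis genes, left of the dotted line, and 5 genes of the other lists, right of it. Bars are exact 95% intervals of the ratio of fragments and cover counting error only. The 10 genes lie between 0.909 and 1.101, and *Myc* in WT lies at 1.88.

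The difference between the responses, WT minus LNCKO, had a median of 0.01 on the log2 scale over the 10 genes and -0.03 over all genes. It ranged from -0.18 for *Aldoa* to 0.16 for *Pfkl*. Of the 10 genes, 0 were past the threshold in this difference upward (3.5% of all genes) and 0 downward (4.1%).

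*Aldoa* had the widest range over the 4 libraries, 0.43 on the log2 scale. Among 2537 other genes averaging 5 FPKM or more, the 5 whose profile over the 4 libraries was nearest to that of *Aldoa*, after each profile was centred on its own mean, were *Trib1*, *Acd*, *Slc3a2*, *Nfkbid* and *Pdhb*. Their root mean square distances from it were 0.028, 0.042, 0.042, 0.043 and 0.048 on the log2 scale. Of the other 9 glycolysis genes, *Slc2a1* was the nearest, at a distance of 0.048, and *Hk1* the furthest, at 0.16.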

How the data were processed

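The 4 libraries were analysed, 1 per group, and groups were taken from the sample titles. The columns of both LNCKO libraries are named NC_2 and R3_2, which do not spell the genotype or treatment, and were mapped through the library names in the sample descriptions, so each genotype difference rests on that mapping. The authors deposited FPKM values for each gene and library. The submitters' processing notes list STAR 2.5.0c, Picard 1.126, bedtools 2.17.0, HTSeq 0.6.0 and GRCm38 among others, with no role, whereas the study's methods name only the sequencing provider's web platform. They also differ on RNA extraction and on the sequencing platform. Strand use and annotation are not given in the sources used here.

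Fragments were recovered as the whole numbers that FPKM, the genomic span in GENCODE M21 and a library total give, within 0.01, which held for 98.4% of matched genes and all 10 members. Intervals are exact Poisson or, for ratios, conditional binomial (95%). Changes are log2 ratios of FPKM + 1, and background shares use genes averaging 1 FPKM or more. Named genes are the 10 members, genes of the fixed lists (largest rise or fall, or past a log2 difference of 0.32), copies of members, and the 5 nearest profiles. Other list genes named were chosen after their values were seen. Members, lists and thresholds were chosen with earlier results of these data known. Shared words and promoter letters were searched by exact match. Steps were tested on simulated data. The tools were pandas 2.3.3, scipy 1.17.1, matplotlib 3.10.9 and numpy 2.4.6 under Python 3.11.15.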

Additional observations from a re-analysis of the deposited data

Results flagged for a closer look

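With butyrate, 3 of the 10 glycolysis genes moved in opposite directions in the genotypes, each by more than its counting interval, and these differences between the genotypes were not tested. By sign alone, 17.9% of all 6809 genes were higher with butyrate in both genotypes and 38.8% were lower in both. The rest went in opposite directions or did not change, so opposite signs were common. The share of all genes that did so by more than the counting interval is not given here. *Pfkl* had a butyrate ratio of FPKM of 1.06 in WT and 0.932 in LNCKO. *Aldoa* had 0.909 in WT and 1.03 in LNCKO. *Eno1*, which shares reads with *Eno1b*, had 1.03 in WT and 0.981 in LNCKO. With equal FPKM sums in each library, the log2 changes of *Eno1* were -0.0051 and -0.048, so its opposite direction was lost, while *Pfkl* (0.022 and -0.11) and *Aldoa* (-0.19 and 0.019) kept theirs. With 1 library per group, spread between cultures is not part of these intervals.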

How the results depend on the processing

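No paired analysis was possible because each group has 1 library and the labels give no replicate numbers that groups share; leaving out a library would empty its group. A value was counted as moved when it shifted by more than its counting error, and a count when it changed by over 1.5 times. The median change of the 10 genes with butyrate in WT, 0.04, moved to 0.092 with libraries scaled by their median ratio and to -0.0070 with FPKM rescaled to the same sum. The median difference of LNCKO from WT with butyrate, 0.25, moved to 0.20 and 0.30 under the same settings. Without butyrate, the 2 genes past a log2 difference of 0.32 in LNCKO became 4 with a pseudocount of 0.1, 4 with no pseudocount, 1 with median ratio scaling and 5 rescaled. With butyrate, the 4 became 1 with median ratio scaling. Rescaling to an equal sum of 1000000 also lowers the weight of the pseudocount, so equal sums at the mean deposited sum were added after seeing the data, and gave -0.0065 for the butyrate median in WT and 0.30 for the genotype median with butyrate. Under both equal-sum settings the members above 0 with butyrate in LNCKO went from 6 to 3, those higher in both genotypes from 4 to 1 and those lower in both from 2 to 4. Shares of all genes under these settings are not given here, and the butyrate medians of all genes fell as well. The 10 genes stayed above 0 in both genotype comparisons under each setting, and 9 of 10 had both LNCKO libraries above both WT libraries under the planned scalings, a count also added after seeing the data. For single members 57 values moved and 143 did not, for medians of other lists 135 and 205, for counts over all genes 42 and 18, and for isoenzyme shares 19 and 69. The median changes of the 10 genes with butyrate were above 0 as deposited and below 0 under both equal-sum settings. They were then -0.0070 and -0.0065 in WT and -0.015 and -0.014 in LNCKO. Members past a log2 difference of 0.32, all in the genotype comparisons, kept their sign.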

Other observations

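The pentose phosphate pathway, which branches off at glucose 6-phosphate and supplies NADPH, was lower with butyrate in WT macrophages for 8 of its 8 genes, with a median log2 change of -0.15 against -0.04 for all genes, of which 63.1% were lower. *G6pdx*, its rate-limiting dehydrogenase, had an FPKM of 14.1 and 11.1 in WT and 13.3 and 12.4 in LNCKO (control first), a butyrate ratio of 0.792 (0.773 to 0.810) in WT and 0.934 (0.913 to 0.955) in LNCKO. *Pgd*, the next dehydrogenase, had butyrate ratios of 0.858 and 0.988. In LNCKO 6 of the 8 genes were lower, against 57.8% of all genes, with a median of -0.02 against -0.01. The TCA cycle list had 13 of 14 genes lower with butyrate in WT, with a median of -0.08. In the same comparison the median was -0.39 over B cell markers and 0.18 over macrophage markers, of which 8 rose and 2 fell. It was -0.36 over 3 mast cell and basophil markers, of which *Ms4a2* rose. Over 2 collagen genes of stromal cells it was -0.27. Of the stromal markers with a mean FPKM below 1, *Col3a1*, *Dcn* and *Cxcl12* rose and *Sparc* fell. With butyrate in LNCKO the median was 0.56 over the 2 collagen genes and 1.40 over 3 hemoglobin genes. The part of these cells was not tested.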
